A study of Phalaenopsis equestris with 4 samples.

Results

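Plant disease resistance genes, R genes for short, were examined in the orchid Phalaenopsis equestris, for 9 gene models whose transcripts were most abundant in leaf or stem. The models are PEQU_27349, PEQU_12877, PEQU_36285, PEQU_38720, PEQU_41464, PEQU_22921, PEQU_42057, PEQU_15036 and PEQU_03884. They were chosen from the 35 models of a deposited R gene table as a fixed list, each highest in leaf or stem as deposited and none on assembly component c157580, which collects many R gene models on a few contigs. PEQU_36285 and PEQU_38720 were matched to the same contig, so the 9 models stand for 8 contigs of the 17 in that table, and each contig is counted once below. A contig is a transcript sequence assembled from the reads. The listed models are not every R gene of this kind: 5 further models on 4 contigs, PEQU_17559, PEQU_17397, PEQU_08953 and the pair PEQU_41483 and PEQU_03885, were also highest in leaf and off that component, and they are given separately.

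The study sequenced RNA from flower, leaf, stem and root of plants 3 years old, with 1 library per tissue. The labels name no genotype, treatment or number of plants per library. Expression was given as FPKM, a fragment count scaled by its usual definition to transcript length and library size, for 221878 contigs assembled from these same reads. With 1 library per tissue there is no replicate check, so every difference below is between libraries, and no p-value or standard deviation can be given.

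Many R genes encode receptors inside the plant cell that carry a nucleotide-binding domain and leucine-rich repeats. They detect molecules that pathogens deliver into the cell, directly or through the host proteins these molecules act on, and set off a defence response that often kills the infected cell. Plants usually carry large families of them, many in clusters of near-identical copies, and keep most of them at low transcript levels in healthy tissue. The tables used here do not say which domains or which pathogens belong to each PEQU model, and none of the models could be paired with an annotated gene, so each is described by its identifier and no role is assigned to it.

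The libraries did not share a scale. FPKM summed to 695751 in the flower library, 7179834 in that of leaf, 684575 in that of stem and 895717 in that of root. From the spacing of low values, the same FPKM stood for 1.80 flower reads, 0.0601 leaf reads or 1.59 stem reads for each root read. A leaf value therefore rests on far fewer reads than the same value elsewhere. The number of reads behind each value is unknown, and no counting interval was computed. No marker gene of a tissue is named in the tables used here, and the tissue labels were not checked against markers.

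The 8 contigs covered a wide range of levels, and all 8 were lowest in flower. In RNA from whole tissue, fewer cells that express a gene and less of its RNA per cell cannot be told apart. Mean FPKM over the 4 libraries ran from 69.2 for PEQU_27349 down to 2.51 for PEQU_03884. A line at a mean of 10 FPKM divided them evenly into 4 abundant and 4 low contigs. Their own highest library was leaf for 6 and stem for 2. That is how they were chosen, and it is given as a description: over the 86758 contigs averaging at least 1 FPKM, 38.4% were highest in leaf and 11.6% in stem, 50.0% in all.

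**Figure D1:**
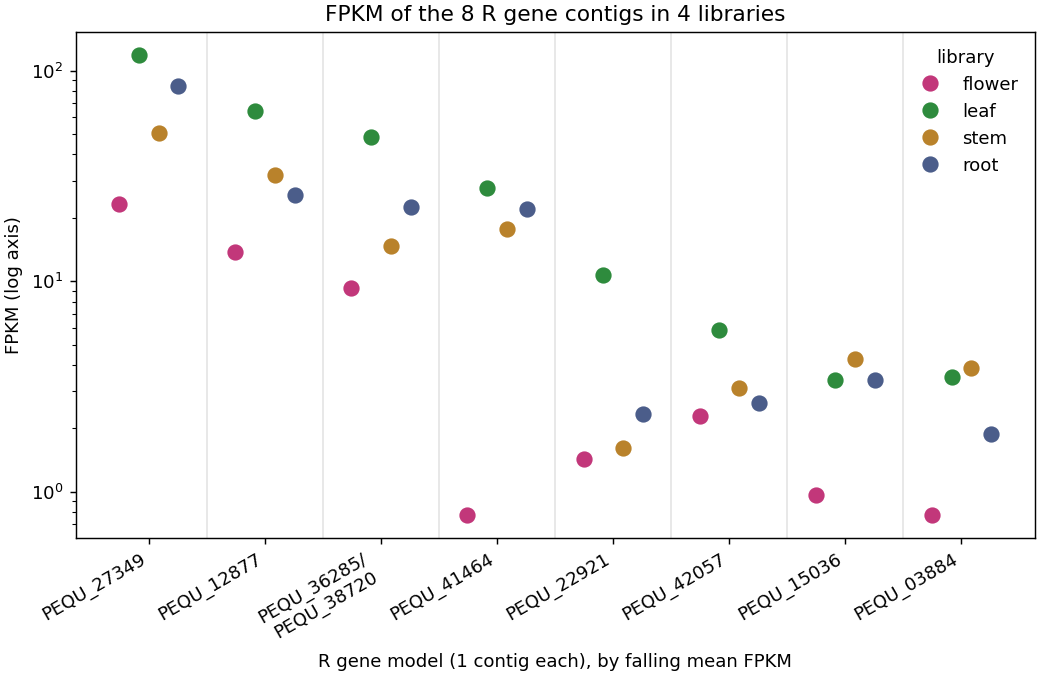
Each point is the FPKM (log axis) of an R gene contig in the flower, leaf, stem or root library, with contigs ordered by falling mean FPKM. The flower point is the lowest of its contig in all 8, and PEQU_41464 has the widest gap, 0.778 FPKM in flower against 17.8 to 27.7 FPKM in the other libraries.

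PEQU_27349 was the most abundant of them, and of all 17 R gene contigs, by mean FPKM. It stood at 23.4 FPKM in flower, against 118 FPKM in leaf, 50.4 FPKM in stem and 84.7 FPKM in root. Leaf was highest, but only 1.40 times above root, and root was above stem. It was the only contig of its assembly component, and the match of model to contig had a bit score of 4877. Whether it shared reads with contigs of other components was not tested. The bit score is the authors' measure of how strong a sequence match is.

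PEQU_12877 was next, with 13.7 FPKM in flower, 64.6 FPKM in leaf, 32.0 FPKM in stem and 25.8 FPKM in root. Leaf was 2.02 times above stem, the next library, and flower was 42.9% of stem. Its component held 7 contigs. The 5 others with a mean of at least 1 FPKM were all lowest in flower too. The second isoform of its own Trinity gene, a group of contigs that the assembler treats as forms of the same gene, was listed at 0 in all 4 libraries.

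The contig shared by PEQU_36285 and PEQU_38720 stood at 9.29 FPKM in flower, 48.4 FPKM in leaf, 14.7 FPKM in stem and 22.4 FPKM in root. These values cannot be divided between the 2 models, whose bit scores of 1108 and 1078 were close. Leaf was 2.16 times above root, and stem was the lowest library after flower. Its component held 9 contigs, and 5 of the 6 others with a mean of at least 1 FPKM were lowest in flower. The exception, c157405_g3_i1, was named after its values were seen. It stood at 81.4 FPKM in flower, against 44.6 FPKM in leaf, 52.1 FPKM in stem and 43.3 FPKM in root.

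PEQU_41464 departed most from the rest. It stood at 0.778 FPKM in flower, against 27.7 FPKM in leaf, 17.8 FPKM in stem and 21.9 FPKM in root. Leaf, stem and root lay within a factor of 1.56 of each other, while flower was only 2.80% of leaf, 4.38% of stem and 3.55% of root. For each root read of this contig there were 0.0639 flower reads, although flower had more reads than root at equal FPKM.

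The component of PEQU_41464 held 4 other contigs with a mean of at least 1 FPKM, and flower was the single lowest library in 2 of them. These 2 are named after their values were seen. The remaining pair was listed at 0 in flower, but also at 0 in leaf. Contig c151802_g2_i1 was at 0.764 FPKM in flower, 7.47 FPKM in leaf, 12.2 FPKM in stem and 11.7 FPKM in root. Contig c151802_g2_i2 was at 0.708 FPKM in flower, 37.9 FPKM in leaf, 2.89 FPKM in stem and 3.15 FPKM in root. Leaf was above root in PEQU_41464 and c151802_g2_i2, and below it in c151802_g2_i1. Contigs of a component share sequence, so how the reads were divided among them is uncertain.

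The 4 low contigs had means from 2.51 to 4.01 FPKM. PEQU_22921 was well above its other libraries in leaf alone, with 1.43 FPKM in flower, 10.7 FPKM in leaf, 1.62 FPKM in stem and 2.35 FPKM in root. Leaf was 4.55 times above root, the widest margin of the 8, and flower was close to stem. The other contig of its component, c148996_g2_i1, chosen after its values were seen, had much the same profile, with 1.57 FPKM in flower, 10.8 FPKM in leaf, 1.53 FPKM in stem and 1.06 FPKM in root, but was lowest in root.

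PEQU_42057 varied least of the 8, with 2.29 FPKM in flower, 5.87 FPKM in leaf, 3.12 FPKM in stem and 2.64 FPKM in root. Its highest value was 2.57 times its lowest. Flower was 86.8% of root and 73.3% of stem, so it was lowest in flower by a small margin. It had the strongest match of the 8, at a bit score of 6282, and like PEQU_27349 was alone on its component.

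PEQU_15036 and PEQU_03884 were the contigs highest in stem. PEQU_15036 was at 0.962 FPKM in flower, 3.38 FPKM in leaf, 4.29 FPKM in stem and 3.40 FPKM in root, so that leaf and root were nearly equal and stem was 1.26 times above root. Of the 3 other contigs of its component, all with a mean of at least 1 FPKM, 1 was lowest in flower. With the 3 isoforms of its Trinity gene summed, the values were 2.22 FPKM in flower, 3.38 FPKM in leaf, 9.38 FPKM in stem and 5.91 FPKM in root, and stem was again highest.

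PEQU_03884 was at 0.778 FPKM in flower, 3.51 FPKM in leaf, 3.88 FPKM in stem and 1.88 FPKM in root. Stem was only 1.11 times above leaf, the narrowest margin of the 8 between the highest library and the next. Stem was 2.06 times above root, the widest ratio of stem to root among the 8. Of the 6 other contigs of its component with a mean of at least 1 FPKM, 3 were lowest in flower.

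Over the components of all 8, 25 other contigs had a mean of at least 1 FPKM, and 16 of them were lowest in flower, beside 32.4% of all contigs compared. These contigs share assembled sequence with the members, so they are not independent of them. Nor are they independent of each other, since some are isoforms of the same Trinity gene. Of the 16, 5 came from the component of PEQU_12877 and 5 from that of PEQU_36285 and PEQU_38720.

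The next comparison asked how far flower fell below root and stem. All 8 contigs were below both of them in flower. Over all contigs compared, 59.1% were, and over the 43361 contigs that were likewise highest in leaf or stem, 51.0% were. The count lowest in flower, 8 of 8, stands beside 32.4% of all contigs and 41.0% of those highest in leaf or stem. Both comparisons use the same flower library. The flower level was between 3.55% and 86.8% of root, with a median of 41.4%, and between 4.38% and 88.2% of stem, with a median of 44.7%. Over all contigs compared, leaving out those at 0 in the denominator, these medians were lower, at 15.7% of root and 29.9% of stem. Over those highest in leaf or stem they were 59.2% and 48.5%. By ratio, then, the 8 contigs had a higher flower level than the median of all contigs and a lower one than the median of contigs highest in leaf or stem.

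**Figure D2:**
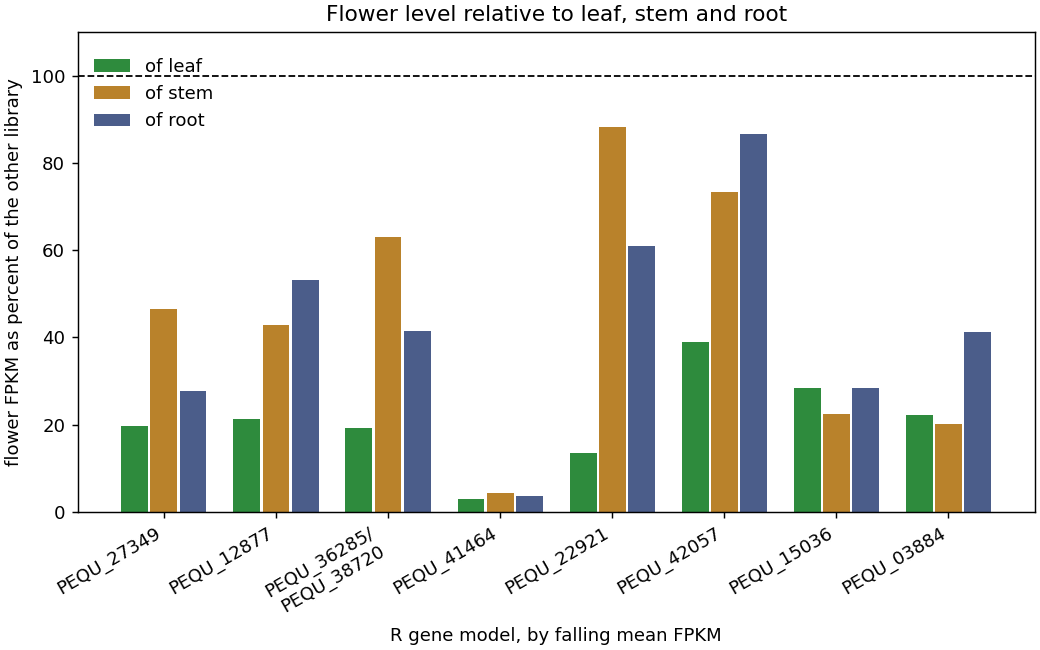
Bars give the flower FPKM of each R gene contig as a percent of its leaf, stem and root FPKM, and the dashed line marks equal levels (100%). All bars lie under the line, from 2.80% for PEQU_41464 against leaf to 88.2% for PEQU_22921 against stem.

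On the log2(FPKM + 1) scale, which understates the change of low contigs, flower minus root had a median of -1.01 over the 8 contigs, and -1.07 over all contigs compared. Contigs highest in leaf or stem had a median of only -0.23. Against stem the median was -1.12 over the 8 contigs, -0.59 over all contigs compared and -0.47 over those highest in leaf or stem. On this scale the 8 contigs lay further below stem than the median of all contigs, whereas by ratio they lay less far below it. Against root, 4 of 8 were at least 2-fold lower in flower, beside 51.3% of all contigs and 25.9% of those highest in leaf or stem. Against stem, 5 of 8 were, beside 34.3% and 30.2%.

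Abundant and low contigs differed in how flower compared with root. Among the 4 abundant contigs the flower level was 3.55% to 53.2% of root, and 3 of 4 were at least 2-fold lower, PEQU_12877 being the exception. Among the 4 low contigs it was 28.3% to 86.8% of root, and only PEQU_15036 was at least 2-fold lower. These calls are on the FPKM + 1 scale: PEQU_03884, at 41.3% of root, did not reach 2-fold there. The ranges overlap, and the medians were -1.50 for abundant and -0.58 for low contigs on the log2(FPKM + 1) scale. That scale understates the change of low contigs. By ratio, the median flower level was 34.5% of root in the abundant contigs and 51.1% in the low ones.

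Against stem the division by level was less clear. The flower level was 4.38% to 63.0% of stem in the abundant contigs and 20.0% to 88.2% in the low ones, with median differences of -1.12 and -0.88. The direction of that contrast turned with a pseudocount of 0.1. PEQU_15036 and PEQU_03884, the pair highest in stem, stood in flower at 22.4% and 20.0% of stem. PEQU_22921 and PEQU_42057, highest in leaf, stood at 88.2% and 73.3%. The stem values had a part in how the first pair was chosen, so this contrast is a description only.

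Well-expressed contigs highest in leaf or stem were not usually lower in flower than in root or stem. Over the 9082 such contigs with a mean of at least 10 FPKM, the median difference was 0.25 against root and 0.07 against stem. Against leaf it was -1.21, but leaf was the highest library of 8496 of them, which is how they were grouped. Of the 9082 contigs, 30.6% lay below both root and stem in flower and 29.3% were lowest there, as the 4 abundant R gene contigs all were. At least 2-fold lower were 15.9% against root and 14.9% against stem, where 3 of the 4 R gene contigs were in each case. Among the 34279 contigs with a mean of 1 to 10 FPKM, the median differences were -0.36 and -0.61. Of these 56.3% lay below both root and stem in flower and 44.1% were lowest there, as the 4 low R gene contigs all were. At least 2-fold lower were 28.6% of these against root, beside 1 of the 4 low R gene contigs, and 34.2% against stem, beside 2 of 4. With 4 contigs on each side and 1 library per tissue, these are descriptions of the libraries.

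**Figure D3:**
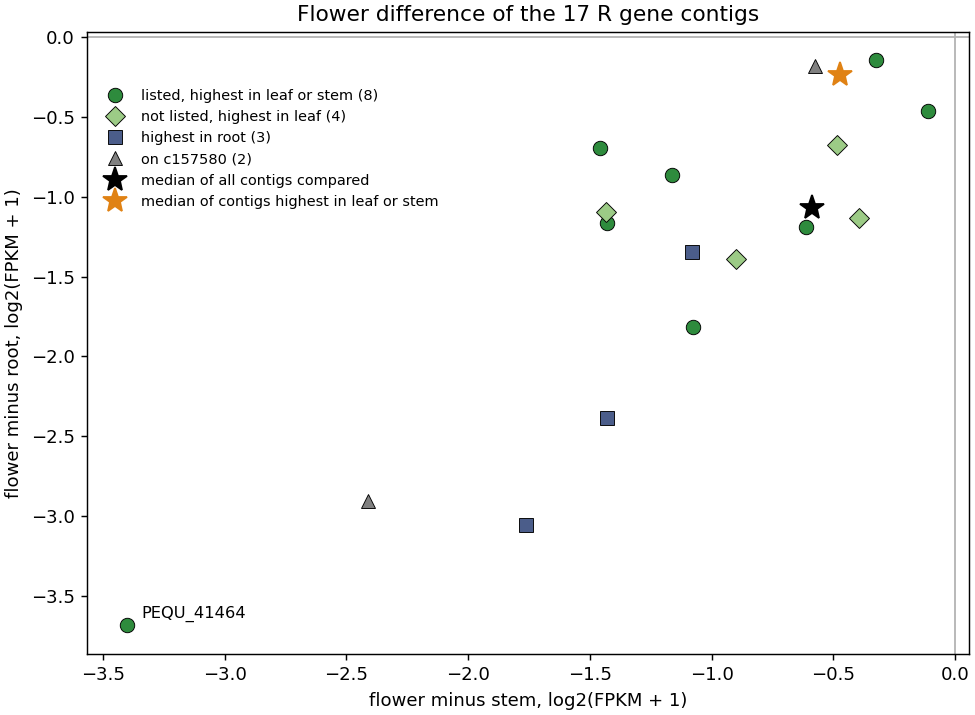
Each point is an R gene contig, placed by its flower minus stem and flower minus root differences in log2(FPKM + 1), with stars at the medians of all contigs compared and of those highest in leaf or stem. All 17 lie below 0 on both axes, which share the flower library, and PEQU_41464 is farthest down at -3.40 and -3.69.

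The remaining R genes give the setting. Of all 17 R gene contigs, 16 were lowest in flower and all 17 lay below both root and stem there, so neither trait was particular to the 8. Lowest in flower were 2 of the 3 contigs highest in root and both contigs on c157580. The c157580 contigs had medians of -1.54 against root and -1.49 against stem. The 4 unlisted contigs highest in leaf were also lowest in flower in 4 of 4, with a median of -1.11 against root and -0.69 against stem, and 3 of 4 were at least 2-fold lower than root but 1 of 4 lower than stem. Their highest values were 28.6 FPKM for PEQU_17559, 19.9 FPKM for PEQU_17397, 9.83 FPKM for PEQU_08953 and 6.70 FPKM for the contig of PEQU_41483 and PEQU_03885, all in leaf and all within the range of the listed contigs. The 3 contigs highest in root had medians of -2.39 against root and -1.43 against stem; they were grouped by their root value, so the first is a description only. The contig nearest to the rule but outside it was that of PEQU_15333, at 3.42 FPKM in stem and 4.32 FPKM in root. PEQU_15036, at 4.29 FPKM in stem and 3.40 FPKM in root, and PEQU_41464, at 27.7 FPKM in leaf and 21.9 FPKM in root, were the listed contigs closest to being highest in root. Of the heat shock contigs, 0 of 13 HSP20, 1 of 8 HSP70 and 2 of 6 HSP90 contigs lay below both root and stem in flower.

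Whether leaf was the highest library depended on how the libraries were scaled. Median-of-ratios factors, set over contigs above 1 FPKM in all 4 libraries, placed leaf 0.87 log2 units above root and 0.83 above stem. With them PEQU_12877, PEQU_36285 with PEQU_38720, PEQU_22921 and PEQU_42057 were still highest in leaf, while PEQU_27349 and PEQU_41464 became highest in root. PEQU_27349 was then at 26.8 FPKM in flower, 76.8 FPKM in leaf, 57.9 FPKM in stem and 100.1 FPKM in root. PEQU_15036 and PEQU_03884 were still highest in stem. All 8 were still lowest in flower. Over all contigs compared, 23.0% were then highest in leaf and 29.8% lowest in flower.

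With the sums of the libraries set equal, none of the 8 was highest in leaf, beside 4.22% of all contigs compared. Lowest in leaf were 7 of 8, where the leaf sum as deposited was 8.02 times that of root. The share of all contigs lowest in leaf was not computed, so this count is a description only. PEQU_41464 alone was still lowest in flower, beside 15.4% of all contigs compared. PEQU_22921 had the highest ratio of leaf to root among the 8, at 4.55 as deposited, 2.50 after median-of-ratios scaling and 0.567 at equal sums. Each scaling divides a whole library by a single factor, so the order of the 8 by this ratio cannot change. The relation of flower to root and stem moved less: 8 of 8 were below both in flower after median-of-ratios scaling, and 7 of 8 at equal sums, where PEQU_42057 was the exception. These scalings could move that relation only a little. The median-of-ratios factors of flower, stem and root were 0.870, 0.869 and 0.846, and the flower and stem sums were 0.777 and 0.764 of root. By rank within each library the count was 4.

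**Figure D4:**
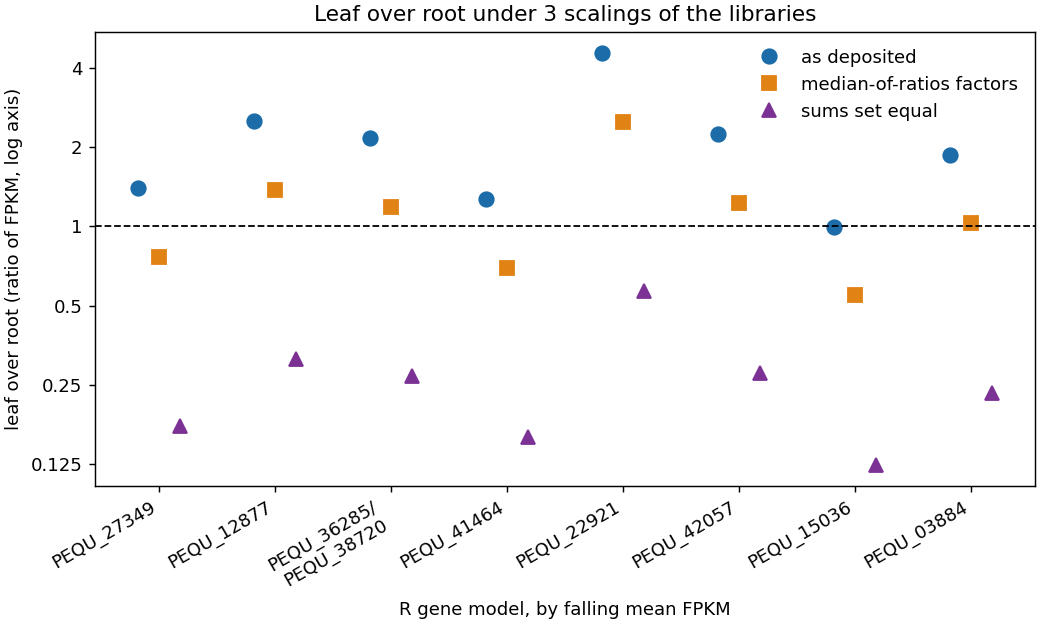
Points give the ratio of leaf to root FPKM (log axis) of each R gene contig as deposited, after median-of-ratios scaling and at equal library sums, and the dashed line marks equal levels. With sums set equal all 8 fall below the line. PEQU_22921 is the highest, and the order cannot change because each scaling divides a whole library by a single factor.

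The read ratios bear on the same point. For each root read, the 8 contigs had between 0.0598 and 0.273 leaf reads. Leaf, where 6 of them had their highest FPKM, had the fewest reads for 7 of the 8. The exception was PEQU_41464, with 0.0639 flower reads and 0.0761 leaf reads per root read. This count largely restates how few leaf reads stand behind a given FPKM, and the share over all contigs was not computed. Flower reads per root read ran from 0.0639 for PEQU_41464 to 1.56 for PEQU_42057, and stem reads from 0.944 for PEQU_27349 to 3.27 for PEQU_03884. Leaving out PEQU_41464, the lowest of the flower values was 0.497 for PEQU_27349.

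Ranks within a library do not depend on its scale, and by rank the abundant and the low contigs differed. Percentiles were taken over the contigs compared, of which the flower library listed 27.5% at 0, leaf 37.1%, stem 8.29% and root 7.27%. These shares of zeros raise the percentile of any low value in flower and leaf. The 4 abundant contigs each ranked lowest in flower. PEQU_27349 was at percentile 94.0 in flower, against 97.9 in leaf, 98.2 in stem and 98.9 in root. PEQU_41464 was at 56.2 in flower, against 90.4 in leaf, 93.3 in stem and 93.6 in root.

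The 4 low contigs each ranked lowest in root instead. The share of all contigs, or of those at a like level, that ranked lowest in root was not computed. Whether this split is particular to these contigs was not tested. PEQU_03884 was at percentile 56.2 in flower and 30.6 in root, and PEQU_42057 was at 70.4 in flower, its highest rank of the 4 libraries, and 39.7 in root. By rank, then, 4 of 8 were lowest in flower, beside 24.3% of all contigs compared and 16.9% of those highest in leaf or stem, and the same 4 ranked below both root and stem in flower, beside 32.1% of all contigs compared. By rank 2 of 8, PEQU_36285 with PEQU_38720 and PEQU_22921, were highest in leaf. PEQU_12877, PEQU_15036 and PEQU_03884 ranked highest in stem, and PEQU_27349 and PEQU_41464 in root.

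**Figure D5:**
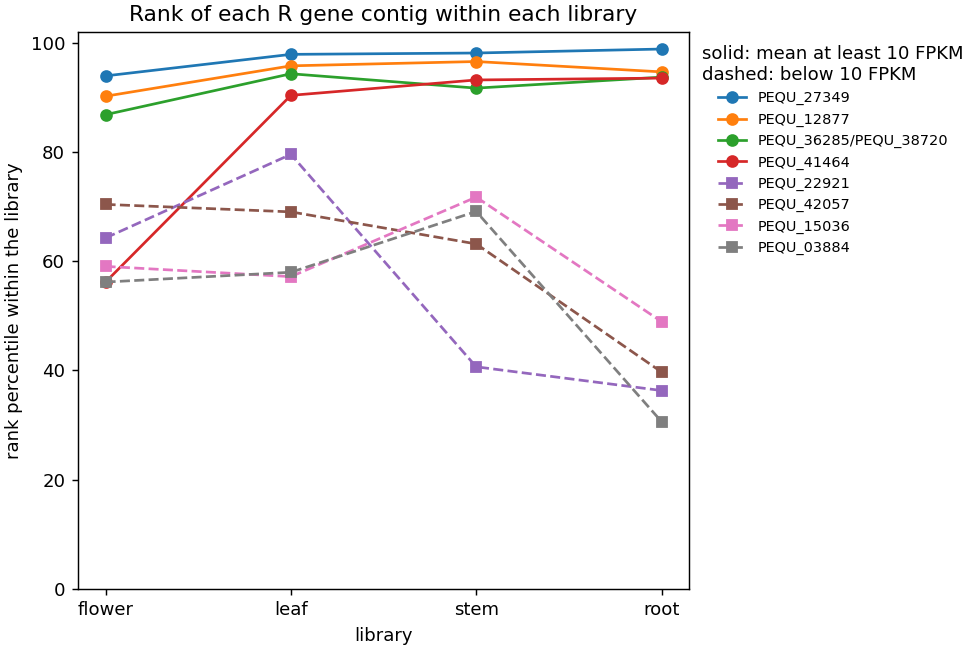
Lines join the rank percentile of each R gene contig within the flower, leaf, stem and root libraries, over contigs with a mean of at least 1 FPKM. The 4 contigs with a mean of at least 10 FPKM (solid) are lowest in flower and the 4 below it (dashed) are lowest in root. The many zeros in flower and leaf raise the percentile of low values there.

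The profiles of the 8 contigs were compared with those of the remaining R gene and heat shock contigs by distance between log2(FPKM + 1) values centred on each contig's mean over the 4 libraries. PEQU_42057 lay closest to another of these contigs, at 0.22 log2 units from c157580_g2_i2, which stands for a group of further R gene models. PEQU_03884 and PEQU_15036 were both nearest to PEQU_08953, at 0.36 and 0.42. PEQU_36285 with PEQU_38720 and PEQU_22921 were both nearest to HSP70_PEQU_18080, at 0.30 and 0.41. That contig is far more abundant, at 2829 FPKM in flower, 14278 FPKM in leaf, 3516 FPKM in stem and 5644 FPKM in root. PEQU_27349 was nearest to the contig of PEQU_36285 and PEQU_38720, at 0.54, and PEQU_12877 to PEQU_17397, at 0.50.

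PEQU_41464 had no near neighbour in either table: the nearest, PEQU_18392, was 1.46 log2 units away. Among all contigs compared, 26 lay within 0.5 log2 units of PEQU_41464, against 833 to 4281 for each of the other 7. With 1 value per library, a profile holds only 4 values, and short distances are common.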

How the data were processed

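RNA of each tissue was made into standard Illumina libraries, per the labels' protocols. Reads were assembled de novo by Trinity, keeping contigs of 200 nucleotides or more, per the design text of the series. Per the submitters' processing notes, edgeR and DESeq were among the tools. How reads were mapped, how FPKM was estimated and which program matched gene models to contigs is not given in the sources used. The deposited values are FPKM, calculated by the authors per the headers, and were used unchanged. The R gene table also holds, per the file headers, an e-value and a bit score for each match of a gene model to a contig. The bit score, a score of match strength, was used as deposited.

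From these values, ratios of FPKM, log2(FPKM + 1) differences, counts and rank percentiles were computed with pandas 2.3.3 and numpy 2.4.6. Background shares cover contigs averaging at least 1 FPKM; a contig tied for the highest or lowest value counts as neither. The reads at equal FPKM were estimated from Trinity genes of a single contig. There, stem to root ratios peak at ratios of small whole numbers, and contigs within 0.02 log2 units of 6 such ratios gave the flower and leaf values. The procedure was tested on simulated reads for 154716 contigs, each given its own length, which was the same in every library. It returned each ratio with an error of at most 0.0302%. The simulation had random counting error only and depths set near those found, so that error does not measure the precision of the deposited ratios. Over the 6 ratios, the deposited flower value ran from 1.79 to 1.82 and the leaf value from 0.0601 to 0.0603. All listed models are named, and the contig nearest in profile to each. Contigs of their components were named after their values were seen. The members, lists and rules were chosen with earlier results of these data known. No test was possible with 1 library per tissue, and the precision of each value is unknown. Alternatives covered scaling, pseudocount, isoforms, gene models, match strength, a filter on low values, ranks and leaving out leaf.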

Additional observations from a re-analysis of the deposited data

How the results depend on the processing

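No paired analysis was possible because each tissue has 1 library. The 8 R gene contigs lowest in flower became 1 with sums set equal, 4 by rank percentile and 4 of 4 with a mean of at least 5 FPKM, and stayed at 8 without the leaf library. The outcomes under the filter and without leaf were fixed in advance. Flower was already below every other library in all 8, and the filter only takes contigs away. The settings on ranks and on leaving out leaf were chosen after seeing the data. The count below both root and stem in flower, 8 as deposited, was 4 by rank percentile and 4 of 4 with a mean of at least 5 FPKM. That outcome under the filter was again fixed in advance. The count highest in leaf, 6 as deposited, was 0 with sums set equal and 2 by rank percentile. With a pseudocount of 5, the counts at least 2-fold lower in flower were 2 against root and 1 against stem, where they were 4 and 5 as deposited; with a mean of at least 5 FPKM the count against stem was 3 of 4. The abundant minus low contrast of the flower minus stem difference, -0.24 as deposited, reversed to 0.0797 with a pseudocount of 0.1. The same contrast of the flower minus root difference was -0.92 as deposited and -0.63 with that pseudocount. It ran from -0.61 with each gene model counted to -1.08 with a pseudocount of 5. The median flower difference stayed negative in all alternatives for which it was taken, from -0.61 to -1.50 against root and from -0.63 to -1.17 against stem. It was not taken by rank, where the 4 low contigs stood higher in flower than in root, or without the leaf library. The filter at a mean of 5 FPKM keeps only the 4 abundant contigs, so the abundant and low contigs could not be compared under it. A match strength of at least 500 left out none of the 8. Low leaf values are limited by few reads. The causes of these shifts were not tested.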
